A study of Mus musculus with 18 samples.

Results

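The tripartite motif (TRIM) genes were followed in newly transcribed RNA of NIH-3T3 cells, a line of mouse embryo fibroblasts. Members were the probe sets annotated with a single gene symbol made of Trim, a number and at most 1 letter, which gave 111 probe sets for 58 genes out of 45037 probe sets for 18193 genes. Of these, 85 probe sets for 44 genes were among the 27773 kept for testing. The cells received IFNα or IFNγ at 100 U/ml, or mock, for 1 h, and each of these came with CHX (cycloheximide, which blocks translation) or with its solvent DMSO, added 15 min earlier. The groups are written IFNα, IFNγ and mock, and IFNα+CHX, IFNγ+CHX and CHX, with 3 arrays each. CHX had thus been present for 75 min at harvest, and 500 µM 4-thiouridine in the last 30 min tagged the RNA that was purified and hybridised. All 18 samples came from 1 cell line, and p-values measure the spread between these samples.

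TRIM proteins carry a RING finger, 1 or more B-boxes and a coiled coil, and many of them are E3 ubiquitin ligases whose substrate is chosen by a further domain at the C-terminal end. Some act in innate immunity, among them TRIM21, a cytosolic receptor for antibody-coated virus, and TRIM25, a ligase of the RIG-I pathway that senses viral RNA. Others act on chromatin (TRIM24, TRIM28, TRIM33), in neurons and muscle (members with NHL repeats) or on the cytoskeleton. Promoters of genes that answer to type I IFN such as IFNα often hold the IFN-stimulated response element (ISRE), while the gamma-activated site (GAS) is known from genes that answer to the type II IFN, IFNγ.

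Precision is limited by the number of arrays. Array medians ranged from 9.6 to 10.8 in linear intensity units, and 52.9 to 56.4% of probe sets reached 8.5, the lowest maximum that was kept. Of 12 fibroblast markers 11 had a probe set annotated with that symbol alone, and these exceeded 100 on every array. Of the other markers measured, 1 of 7 leukocyte, 2 of 6 epithelial and 0 of 6 endothelial ones passed the filter. The leukocyte marker that passed, *Cd68*, averaged 196 in CHX arrays and 92.3 in mock arrays (log2 change 1.04, SE 0.32, adjusted p = 0.0345), which was not called. Whether this moved with any TRIM result was not tested.

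Promoter letters are given first, since both elements lie in promoters. The window of 250 bases before and 50 bases after a start site in RefSeq (build GRCm38.p6) was searched for an ISRE-like match, which is GAAA followed after 2 bases of any kind by GAAA on either strand, and for a GAS-like match, which is TTC and GAA parted by 3 bases of any kind. Windows were found for 47 of the 58 genes. An ISRE-like match stood in 5 of the 8 genes with a window that an IFN raised on these arrays (62.5%). It stood in 4 of the 27 tested genes that were not called with an IFN (14.8%) and in 0 of the 12 genes that were not tested. Among all 27025 genes with a window 3.99% held one. A GAS-like match stood in 0 of the 8 raised genes, in 2 of the 27 others tested and in 2 of the 12 not tested, against 9.55% of all genes. The raised genes were chosen by their values on these arrays, so these shares are a description and carry no test. Of the 5 raised genes with a match, *Trim12c*, *Trim30a* and *Trim30d* lie in a cluster of close copies on chromosome 7, so the 5 are not independent. A match is not a bound site, and the arrays themselves hold no promoter data.

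The stretches with the ISRE-like match are shown in the direction of transcription, with the matching letters in capitals. Near copies of 1 stretch stood at genes that were raised and at genes that were not called. *Trim21*, *Trim12c*, *Trim30a*, *Trim30d* and *Trim26* were raised by an IFN, while *Trim5* and *Trim34a*, with values near the filter level, were not called.
Trim21, chr7:102565433-102565495, - strand: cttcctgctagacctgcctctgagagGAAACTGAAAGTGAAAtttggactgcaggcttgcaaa
Trim12c, chr7:104353343-104353404, - strand: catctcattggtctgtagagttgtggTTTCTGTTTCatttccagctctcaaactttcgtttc
Trim5, chr7:104288120-104288181, - strand: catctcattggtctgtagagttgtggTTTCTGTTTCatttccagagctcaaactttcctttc
Trim30a, chr7:104465194-104465255, - strand: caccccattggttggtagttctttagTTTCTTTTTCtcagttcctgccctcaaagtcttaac
Trim30d, chr7:104507855-104507916, - strand: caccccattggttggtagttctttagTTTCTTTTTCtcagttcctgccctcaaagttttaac
Trim26, chr17:36836960-36837027, + strand: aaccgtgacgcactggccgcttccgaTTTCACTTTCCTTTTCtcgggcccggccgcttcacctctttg
Trim34a, chr7:104244441-104244502, + strand: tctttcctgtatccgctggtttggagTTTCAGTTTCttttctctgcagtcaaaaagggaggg
In *Trim21* and *Trim26* 2 matches overlapped. The stretch of *Trim12a* had the same letters as that of *Trim5* at 62 of 62 positions, and *Trim12c* shared 59 of 62 positions with each of them (95.2%). *Trim30a* and *Trim30d* shared 61 of 62 positions (98.4%), and a further window of *Trim30a* held a match with 48 of 62 positions shared with the stretch shown (77.4%). Relative to the start site the match began 29 bases before it in *Trim12c*, 36 before it in *Trim30a*, 41 before it in *Trim30d* and 160 before it in *Trim26*, while that of *Trim21* began at base 14 of the transcript. *Trim2* held a match in 1 of its windows.

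**Figure D1:**
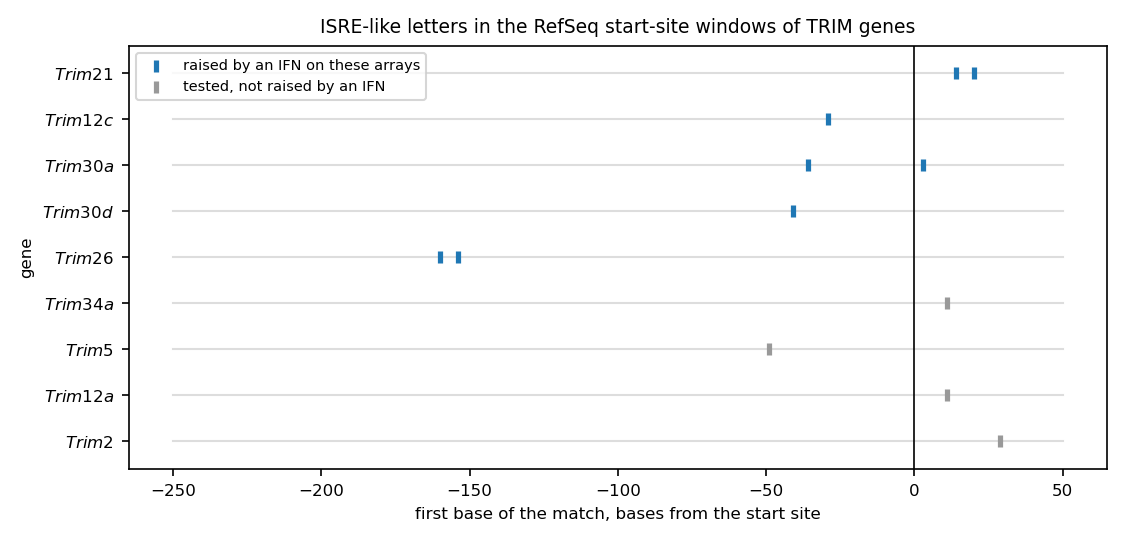
Position of each ISRE-like match in the RefSeq windows of TRIM genes, as the distance of its first base from the start site (x axis, in bases) with 1 line per gene. Blue marks genes raised by an IFN on these arrays and grey marks tested genes that were not called with an IFN. In 4 of the 5 blue genes a match lay within 41 bases of the start site.

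*Trim25*, *Trim56* and *Trim6* were raised as well, and neither exact match was found in their windows. Letters that differ from a match were not searched for, so related sequences may stand there. The window of *Trim25* is printed whole for comparison, since this gene was raised by both IFNs.
Trim25, chr11:88999153-88999452, + strand: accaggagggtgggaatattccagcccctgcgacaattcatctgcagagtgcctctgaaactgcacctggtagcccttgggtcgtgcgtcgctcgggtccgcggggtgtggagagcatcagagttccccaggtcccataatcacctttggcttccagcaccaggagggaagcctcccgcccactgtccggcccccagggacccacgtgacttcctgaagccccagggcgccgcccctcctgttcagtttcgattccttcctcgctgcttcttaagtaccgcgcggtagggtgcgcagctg
*Trim11* and *Trim17*, which IFNγ raised, had no entry in the promoter table.

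IFNα raised 10 TRIM probe sets of 6 genes and lowered 0, where a call needed an adjusted p under 0.01 (limma, Benjamini-Hochberg over all 27773 probe sets) and a change of at least 2-fold. IFNγ raised 7 probe sets of 4 genes and lowered 0. Over all probe sets tested, 0.461% rose and 0.0396% fell with IFNα, and 1.42% rose and 0.209% fell with IFNγ. The comparisons share the mock arrays, so the IFNs are not independent of each other here. At an unadjusted p under 0.05, 17 TRIM probe sets passed with IFNα and 15 with IFNγ (20% and 17.6% of the 85, against 5.84% and 10.8% of all probe sets). Of the 10 called with IFNα, 3 passed the filter on low values only through arrays treated with an IFN, and the same held for 2 of the 7 called with IFNγ, so these counts describe the members and support nothing beyond. The median log2 change of the 85 probe sets was 0.04 with IFNα and 0.02 with IFNγ, against 0.01 and 0.00 over all probe sets.

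In the presence of CHX, IFNα raised 12 TRIM probe sets of 8 genes (0.889% of all probe sets rose and 0.00360% fell) and IFNγ raised 10 probe sets of 7 genes (2.57% of all rose and 0.612% fell), and both lowered 0. At an unadjusted p under 0.05, 16 and 21 TRIM probe sets passed (18.8% and 24.7%, against 4.01% and 18.1% of all probe sets). The CHX arrays served both comparisons, and 3 of the 12 probe sets and 2 of the 10 passed the filter only through arrays with an IFN. In all, 10 TRIM genes were raised by an IFN in at least 1 of these 4 comparisons. They were *Trim21*, *Trim25*, *Trim56* and *Trim26* among the 9 tested members of a group of IFN-linked antiviral and sensing ligases, *Trim12c*, *Trim30a*, *Trim30d* and *Trim6* among the 7 tested members of a cluster on chromosome 7, and *Trim11* and *Trim17* among 16 further members. The first group was drawn up for its link to IFN and with earlier results of these data known. Its count therefore describes the list and supports nothing beyond. None of the 4 TIF1 and chromatin members, the 4 NHL members or the 4 cytoskeletal members tested was called with an IFN, where medians of the groups lay between -0.63 and 0.25 on the log2 scale. In every called comparison of 2 treatments the 3 arrays of one did not overlap those of the other. That follows largely from the limits of a call and adds no support to the calls.

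**Figure D2:**
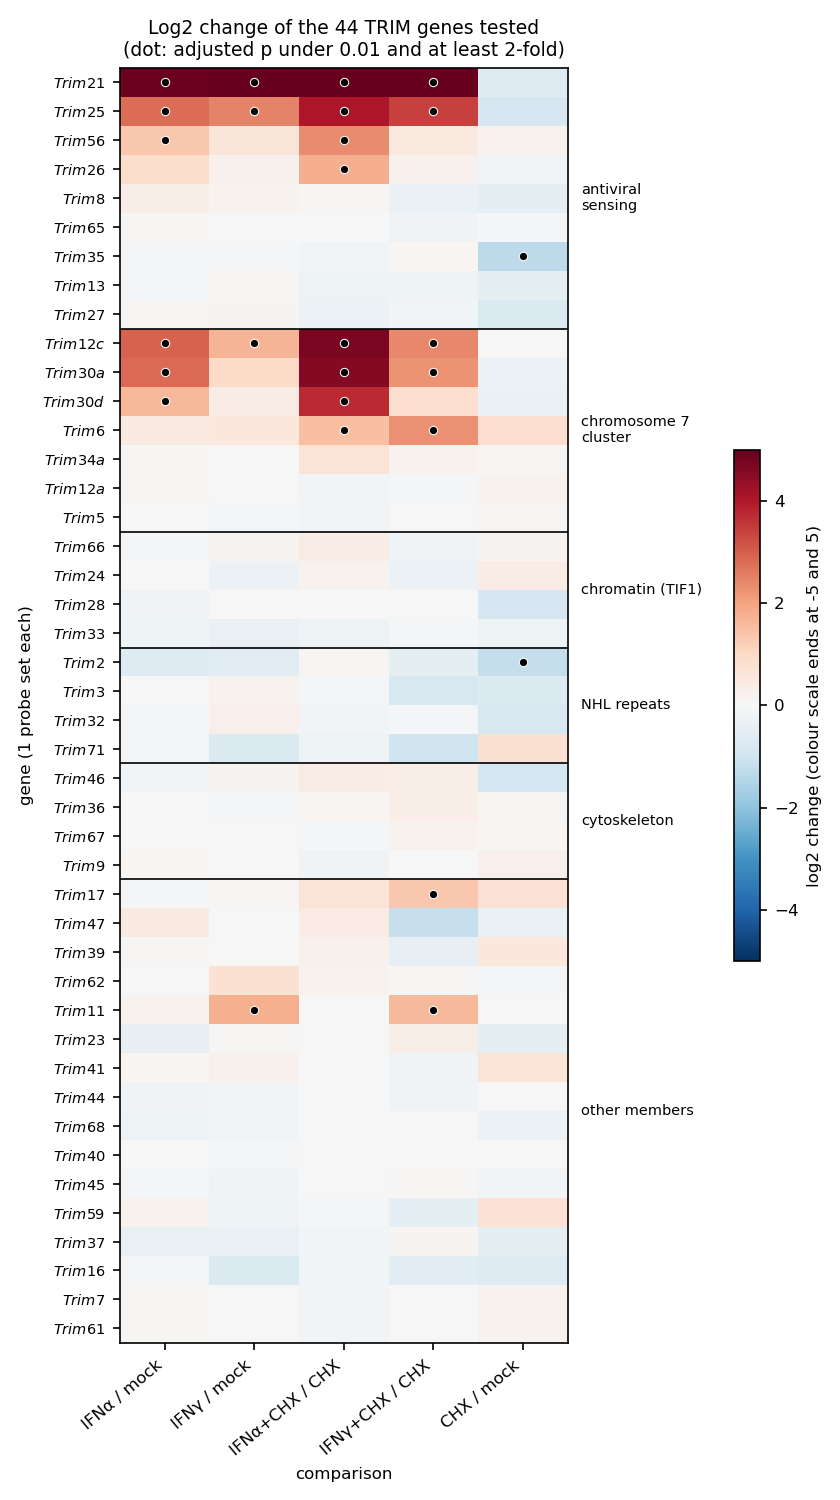
Log2 change of the 44 TRIM genes tested (1 probe set per gene, rows) in 5 comparisons (columns), from blue for lower to red for higher, with a dot where the change was called. Red squares with dots are limited to *Trim21*, *Trim25*, *Trim56*, *Trim26*, *Trim12c*, *Trim30a*, *Trim30d*, *Trim6*, *Trim17* and *Trim11*, and the 2 blue squares with dots are *Trim35* and *Trim2* with CHX.

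*Trim21* on chromosome 7 encodes the cytosolic Fc receptor of the family and had the largest log2 change of the members in all 4 IFN comparisons. Probe set 1448940_at read 300.5, 225.9 and 211.8 in IFNα arrays and 307.2, 260.5 and 228.6 in IFNγ arrays, against 8.1, 7.7 and 7.8 in mock arrays. With CHX it read 798.3, 577.2 and 475 in IFNα+CHX arrays and 682, 549.6 and 528 in IFNγ+CHX arrays, against 4.7, 4.6 and 6 in CHX arrays. Every array with an IFN thus lay far above every array without one, and all arrays without IFN lay below the level of 8.5 at which probe sets were kept. Set against that level, the rise was at least 28.6-fold with IFNα, 31-fold with IFNγ, 70.9-fold with IFNα+CHX and 68.6-fold with IFNγ+CHX. The fitted log2 changes were 4.95 with IFNα (SE 0.19, adjusted p = 5.19e-10) and 5.07 with IFNγ (SE 0.19, adjusted p = 3.76e-10), and the second probe set of the gene, 1418077_at, gave 4.58 and 4.46 (SE 0.30). *Trim21* was not called between IFNγ and IFNα (0.12, SE 0.19, adjusted p = 1).

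*Trim25* on chromosome 11, the ligase of the RIG-I pathway, was raised by both IFNs on all 3 of its probe sets. Probe set 1419879_s_at read 6998.3, 6918.1 and 6337.4 in IFNα arrays and 5470.8, 5810.9 and 5017.7 in IFNγ arrays, against 1015.5, 884 and 1018.6 in mock arrays. All arrays with an IFN lay above all mock arrays, and the mock arrays themselves were far above the filter level. With CHX it read 8737.6, 8814.6 and 9345.5 in IFNα+CHX arrays and 6523.7, 6035.9 and 5045.4 in IFNγ+CHX arrays, against 614.7, 534.2 and 490 in CHX arrays. The log2 change was 2.80 with IFNα and 2.48 with IFNγ (SE 0.11), and 4.04 and 3.42 in the presence of CHX. The other probe sets ranged from 2.72 to 3.20 with IFNα and from 2.48 to 2.93 with IFNγ.

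*Trim56* on chromosome 5, whose product is an antiviral ligase, responded to IFNα. Its intensity was 927.3, 892.5 and 833.4 in IFNα arrays, against 343.9, 338.7 and 367.9 in mock arrays, a log2 change of 1.34 (SE 0.13, adjusted p = 2.24e-05). IFNγ arrays at 515.5, 595.2 and 478.4 were above all mock arrays too, but the log2 change of 0.59 (SE 0.13, adjusted p = 0.0171) was not called. *Trim26* on chromosome 17, a member of the major histocompatibility complex region, read 619.3, 503.2 and 515.4 in IFNα+CHX arrays, against 186.5, 142.6 and 142 in CHX arrays (log2 change 1.80, SE 0.18, adjusted p = 1.77e-05). Without CHX it read 337.1, 310.8 and 289.6 in IFNα arrays, against 171.4, 160.7 and 176 in mock arrays. These arrays did not overlap, and the log2 change of 0.88 (SE 0.18, adjusted p = 0.0321) was below both limits of a call. A second *Trim26* probe set with 11.3 to 32.3 units on all arrays was not called.

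**Figure D3:**
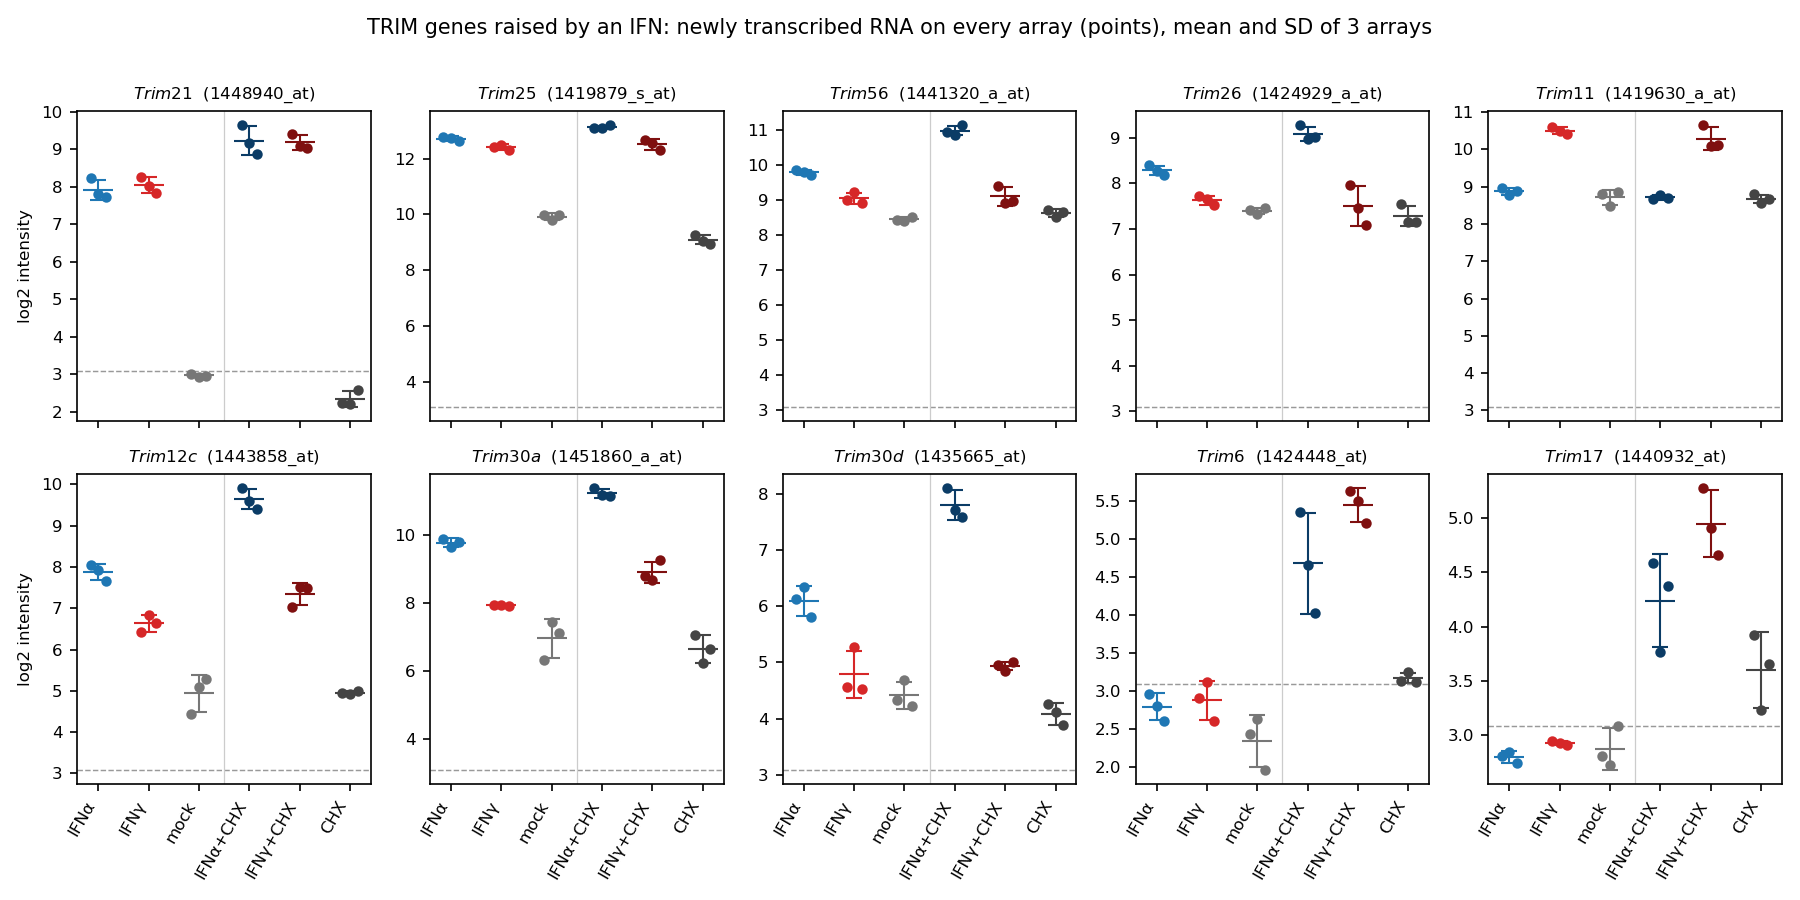
Log2 intensity (y axis) of 1 probe set for each of the 10 TRIM genes raised by an IFN on every array (points), with mean and SD of the 3 arrays, ordered as IFNα, IFNγ and mock and then the same with CHX, and with the filter level as a dashed line. *Trim21* without IFN lies below the dashed line on all 6 arrays, *Trim11* is high in the IFNγ groups, and *Trim12c*, *Trim30a* and *Trim30d* are highest in IFNα+CHX.

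The other tested members with antiviral roles, *Trim8*, *Trim13*, *Trim27*, *Trim35* and *Trim65*, were not called with an IFN. *Trim8*, a regulator of cytokine signalling, read 1524.2, 1280.2 and 1174.2 in IFNα arrays, against 1250.6, 885.2 and 1067.5 in mock arrays. These arrays, of probe set 1418577_at, overlapped, and the log2 change was 0.32 (SE 0.26, adjusted p = 1). Probe set 1460237_at read 141.8, 167.4 and 152 in IFNα arrays, against 121.3, 71.3 and 75.7 in mock arrays, which did not overlap, but its log2 change of 0.82 was not called (SE 0.49, adjusted p = 1). *Trim14* and *Trim31* did not pass the filter.

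The chromosome 7 cluster holds relatives of the primate restriction factor TRIM5. In the RefSeq order of protein-coding genes *Trim6*, *Trim34a*, *Trim5*, *Trim12a*, *Trim34b*, *Trim12c*, Gm38525, *Trim30b*, *Trim30c*, *Trim30a* and *Trim30d* follow each other without another gene between them, and *Trim21* and *Trim68* lie apart from them among olfactory receptor genes. Genes of this cluster are close copies, and probe sets of 1 of them may read another. The array has 5 further probe sets annotated to several genes including a TRIM gene, which were left out. The signals named here for *Trim12c*, *Trim30a* and *Trim30d* are therefore uncertain as to the copy.

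*Trim30a*, which in mouse dampens Toll-like receptor signalling, was raised by IFNα on both of its probe sets. Probe set 1451860_a_at read 954.2, 799.6 and 893.4 in IFNα arrays and 246.4, 247.7 and 238.9 in IFNγ arrays, against 80.3, 172.5 and 138.6 in mock arrays. The IFNα arrays were far above the mock arrays (log2 change 2.82, SE 0.25, adjusted p = 8.76e-06). The IFNγ arrays did not overlap the mock arrays either, and the log2 change of 0.98 (SE 0.25, adjusted p = 0.0498) missed both limits. With CHX the probe set read 2679.7, 2303.9 and 2273.6 in IFNα+CHX arrays and 440.6, 407.3 and 613 in IFNγ+CHX arrays, against 134.7, 75.2 and 99.3 in CHX arrays. Here both changes were called, at 4.59 for IFNα and 2.26 for IFNγ (SE 0.25). Probe set 1417961_a_at, below the filter level in mock and CHX arrays, rose at least 5.59-fold with IFNα and at least 12-fold with IFNα+CHX, and IFNγ was not called on it.

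*Trim12c* on probe set 1443858_at read 266.4, 243.1 and 202.2 in IFNα arrays and 85.9, 114.6 and 99.4 in IFNγ arrays, against 21.6, 34.1 and 39 in mock arrays. Both IFNs raised it, by 2.94 and 1.70 on the log2 scale (SE 0.21, adjusted p = 5.52e-07 and 1.34e-04). In the presence of CHX it read 963.4, 777.7 and 682.9 in IFNα+CHX arrays and 131, 182.7 and 179.7 in IFNγ+CHX arrays, against 31.1, 30.2 and 31.8 in CHX arrays. *Trim30d* on probe set 1435665_at read 70.1, 81 and 56.3 in IFNα arrays, against 20.2, 25.8 and 18.7 in mock arrays (1.68, SE 0.21, adjusted p = 3.34e-04), and 274.5, 208.2 and 192.9 in IFNα+CHX arrays, against 19.1, 17.3 and 14.7 in CHX arrays (3.72, SE 0.21). It was not called with IFNγ, where the log2 change was 0.37 without CHX and 0.85 with CHX (adjusted p = 0.65 and 0.0204). A second probe set of *Trim12c* (1445271_at, 10.6 to 16.5 units on all arrays) and of *Trim30d* (1438716_at, 7 to 11 units) was not called in any comparison.

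*Trim6* was called only in the presence of CHX. It read 40.9, 25.2 and 16.3 in IFNα+CHX arrays and 49.8, 45.4 and 36.9 in IFNγ+CHX arrays, against 8.8, 9.5 and 8.7 in CHX arrays, with log2 changes of 1.51 (SE 0.27, adjusted p = 0.0062) and 2.28 (SE 0.27, adjusted p = 4.33e-05). The call for IFNα+CHX was lost in 15 of 26 alternatives, with log2 changes from 0.76 to 1.84 and adjusted p up to 0.386. Among these were log2(value + 16), quantile normalization, median centring, no filter, a fit of only the arrays compared, and leaving out mock replicate 1, IFNα replicate 1 or 2, IFNγ replicate 1, any CHX array, IFNα+CHX replicate 1 or 2, or IFNγ+CHX replicate 2. The call for IFNγ+CHX was lost in 0 of 26, with log2 changes from 1.26 to 2.44. Without CHX *Trim6* stayed between 3.9 and 8.7 on all 9 arrays, and its CHX arrays were close to the filter level of 8.5. The difference between its responses with and without CHX was not called for either IFN (1.06 for IFNα and 1.745 for IFNγ). Its mock arrays lay under the filter level, so no size of that difference can be read from them. *Trim34a* on probe set 1426093_at read 10.5, 11.2 and 23.5 in IFNα+CHX arrays, against 9, 8.5 and 8.6 in CHX arrays, and the log2 change of 0.69 (SE 0.21, adjusted p = 0.335) was not called. Its other probe set, 1424857_a_at, read 14.2, 5 and 6.9, against 4.9, 4.8 and 4.8, and was not called either. *Trim5* and *Trim12a*, whose stretches matched that of *Trim12c* nearly letter by letter, stayed between 7.2 and 10.8 on all 18 arrays on the probe sets kept, close to the filter level, and were not called.

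Among the other members *Trim11* on chromosome 11, a ligase studied in protein quality control, answered to IFNγ. It read 1541.1, 1444.8 and 1364 in IFNγ arrays and 496.5, 438.5 and 471.1 in IFNα arrays, against 442, 354.9 and 465.7 in mock arrays. Every IFNγ array lay above every other array without CHX, and the IFNα arrays overlapped the mock arrays. The log2 change was 1.79 with IFNγ (SE 0.14, adjusted p = 1.59e-06) and 0.16 with IFNα (SE 0.14, adjusted p = 1). With CHX the pattern was alike, with 1593.2, 1080.1 and 1114.1 in IFNγ+CHX arrays and 404.3, 440.5 and 412.6 in IFNα+CHX arrays, against 442.5, 377.5 and 405.8 in CHX arrays.

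*Trim17*, also on chromosome 11, was called with IFNγ+CHX, where it read 38.8, 30 and 25.3, against 15.2, 9.4 and 12.6 in CHX arrays (log2 change 1.34, SE 0.21, adjusted p = 7.70e-04). The change was 0.73 with log2(value + 16), below 2-fold, and in a fit of only the arrays compared the adjusted p was 0.062. The 9 arrays without CHX lay between 6.6 and 8.5. A probe set annotated to both *Trim17* and a histone gene was left out, and whether the signal of *Trim17* shared transcripts with that gene was not tested.

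The 2 IFNs were also compared with each other. Relative to IFNα, IFNγ gave 1 TRIM probe set higher and 4 lower, while over all probe sets 1.10% were higher and 0.374% lower. *Trim11* was the higher one (1.63, SE 0.14, adjusted p = 5.66e-06). Both probe sets of *Trim30a* (-1.85, SE 0.25, and -2.13, SE 0.33), *Trim30d* (-1.31, SE 0.21) and *Trim12c* (-1.25, SE 0.21) were lower, with adjusted p from 4.17e-04 to 2.45e-03. In the presence of CHX, IFNγ+CHX gave 1 higher and 6 lower than IFNα+CHX, where 1.74% of all probe sets were higher and 1.19% lower. *Trim11* was again higher (1.57, SE 0.14), and *Trim30d* (-2.87, SE 0.21), both probe sets of *Trim30a* (-2.56, SE 0.33, and -2.33, SE 0.25), *Trim12c* (-2.30, SE 0.21), *Trim56* (-1.88, SE 0.13) and *Trim26* (-1.58, SE 0.18) were lower.

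*Trim25* differed between the IFNs by less than 2-fold. Without CHX its 3 probe sets lay between -0.32 and -0.25 on the log2 scale for IFNγ relative to IFNα and did not pass the test, and with CHX they lay between -0.96 and -0.59 with adjusted p from 9.22e-04 to 0.0215. *Trim30a*, *Trim30d* and *Trim12c*, which were lower with IFNγ without CHX, belong to the chromosome 7 cluster, while *Trim11*, which was higher, lies on chromosome 11. In a fit of only the 6 arrays compared, 2 TRIM probe sets were called without CHX and 4 with CHX, and 3 were called without CHX after leaving out IFNα replicate 2, IFNγ replicate 1 or IFNγ replicate 3.

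The response to an IFN with CHX was then set against that without CHX, as a difference of 2 log2 changes. For IFNα this difference was called and positive in 5 TRIM probe sets of 3 genes (0.187% of all probe sets were higher and 0 lower), and for IFNγ in 1 (0.198% of all were higher and 0.0396% lower). The response to IFNα was larger with CHX by 2.04 on the log2 scale for *Trim30d* (SE 0.29, adjusted p = 4.73e-03) and by 1.25 to 1.73 for the 3 probe sets of *Trim25* (adjusted p from 1.47e-03 to 4.52e-03). The fitted difference of *Trim21* on probe set 1448940_at was 1.95 for IFNα (SE 0.27, adjusted p = 3.42e-03). For IFNγ the fitted difference of *Trim21* on 1448940_at was 1.78 (SE 0.27, adjusted p = 7.14e-03).

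The groups without IFN entered these differences too. *Trim21* read 4.7, 4.6 and 6 in CHX arrays against 8.1, 7.7 and 7.8 in mock arrays, values under the filter level on which the fitted difference rests, so no size of the difference can be read from them. Its probe set 1418077_at gave 0.77 for IFNα (SE 0.43, adjusted p = 1) and 0.84 for IFNγ (SE 0.43, adjusted p = 0.702), and the calls on 1448940_at were lost in 10 of 27 alternatives for IFNα and in 14 of 27 for IFNγ. Those of *Trim30d* and of *Trim25* on 1425974_a_at for IFNα were each lost in 11 of 27. *Trim25* was higher in IFNα+CHX than in IFNα arrays on all 3 probe sets and had negative log2 changes with CHX alone. *Trim12c* (1.74, SE 0.30, adjusted p = 0.0165), *Trim30a* (1.77, SE 0.36, adjusted p = 0.0627) and *Trim56* (1.01, SE 0.18, adjusted p = 0.0283) had positive differences for IFNα that did not pass the test. For *Trim11* the difference was -0.19 for IFNγ (SE 0.20, adjusted p = 0.96). For IFNα 1 probe set was called after median centring, 1 in a fit of only the arrays compared, and 2 without mock replicate 2 or without IFNα replicate 3. For IFNγ 0 were called without any one of 10 arrays, which include all 3 mock arrays, where 15 TRIM probe sets had an unadjusted p under 0.05 on all arrays (17.6%, against 7.78% of all probe sets).

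**Figure D4:**
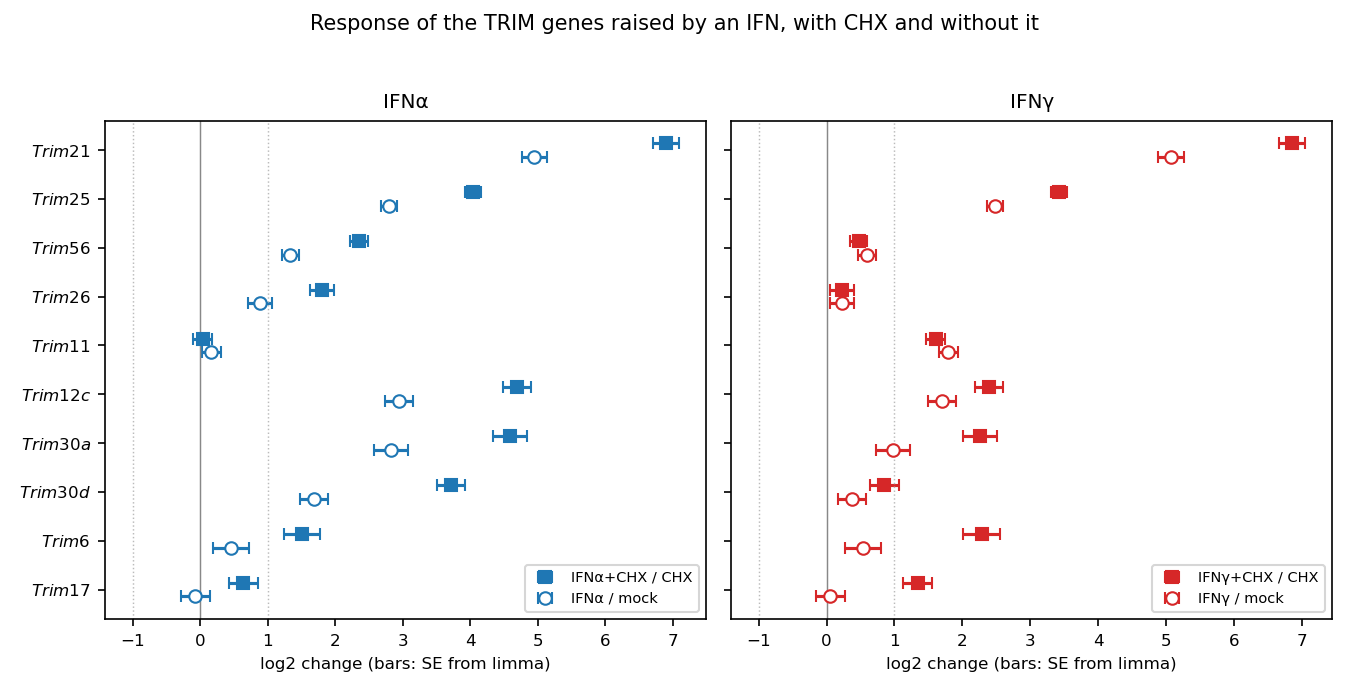
Log2 change (x axis, bars are the SE) of the 10 TRIM genes raised by an IFN, for IFNα (left, blue) and IFNγ (right, red), with CHX as filled squares and without it as open circles. For IFNα the squares of *Trim21*, *Trim25*, *Trim56*, *Trim26*, *Trim12c*, *Trim30a* and *Trim30d* lie to the right of the circles, and for *Trim11* the IFNγ symbols lie at 1.61 and 1.79.

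CHX alone lowered 6 TRIM probe sets of 4 genes and raised 0 by the call, where 4.07% of all probe sets fell and 2.51% rose. The share of the members that were lowered, 7.06% of 85, was not far from this background, and the median of the members was -0.08, against 0.04 over all probe sets. Centring the arrays on their medians moved the median of all probe sets to 0.15. The CHX values that follow are from the arrays as deposited.

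*Trim35* on chromosome 14, a ligase known as a regulator of IRF7, had the largest fall on its probe set 1429494_at. Its probe set 1454650_at read 1249.7, 1174.1 and 1112.4 in CHX arrays, against 2759.8, 3077.6 and 2853.2 in mock arrays, a log2 change of -1.30 (SE 0.09, adjusted p = 2.65e-07). With an IFN the values stayed at these levels, between 1028.7 and 1333.2 on the 6 arrays with IFN and CHX and between 2690.6 and 2871.6 on the 6 arrays with IFN alone. The 9 arrays with CHX thus all lay below the 9 without it. Probe set 1429494_at gave -1.91 (SE 0.42, adjusted p = 5.49e-03), and 1425621_at, with 4.9 to 65.2 units, was not called (-1.59, SE 0.61, adjusted p = 0.0846).

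*Trim27*, on chromosome 13, encodes a ligase and repressor of transcription and has 6 probe sets that passed the filter. Probe set 1448101_s_at read 471.9, 366.9 and 328.3 in CHX arrays, against 1357.7, 793.2 and 923.5 in mock arrays (-1.38, SE 0.22, adjusted p = 5.22e-04), and 1441051_at read 27.5, 21.4 and 21.3 in CHX arrays, against 128.8, 72.1 and 41.7 in mock arrays (-1.65, SE 0.35, adjusted p = 4.19e-03). On the second the mock arrays were spread widely while the CHX arrays were close together, and neither probe set overlapped. Its most intense probe set gave -0.73 (SE 0.24, adjusted p = 0.0447) and was not called. *Trim2* on chromosome 3, a ligase with NHL repeats known from neurons, read 81.6, 117.1 and 132.5 in CHX arrays, against 222.7, 264.4 and 247.1 in mock arrays on probe set 1417027_at (-1.17, SE 0.24, adjusted p = 3.25e-03), and its 4 other probe sets that passed the filter lay between -1.20 and -0.20 without a call.

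For *Trim25*, 1425974_a_at was lowered by CHX, at 495.9, 545.7 and 409.4 in CHX arrays, against 1085.8, 1091.3 and 808.2 in mock arrays (-1.04, SE 0.14, adjusted p = 1.73e-04), and 1419879_s_at changed by -0.84 (SE 0.11, adjusted p = 1.44e-04), which was below 2-fold. Of these CHX calls only that of *Trim35* on probe set 1454650_at was made with every alternative tried. In a fit of the 6 CHX and mock arrays alone 1 TRIM probe set was called, and 2 were called without mock replicate 2.

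**Figure D5:**
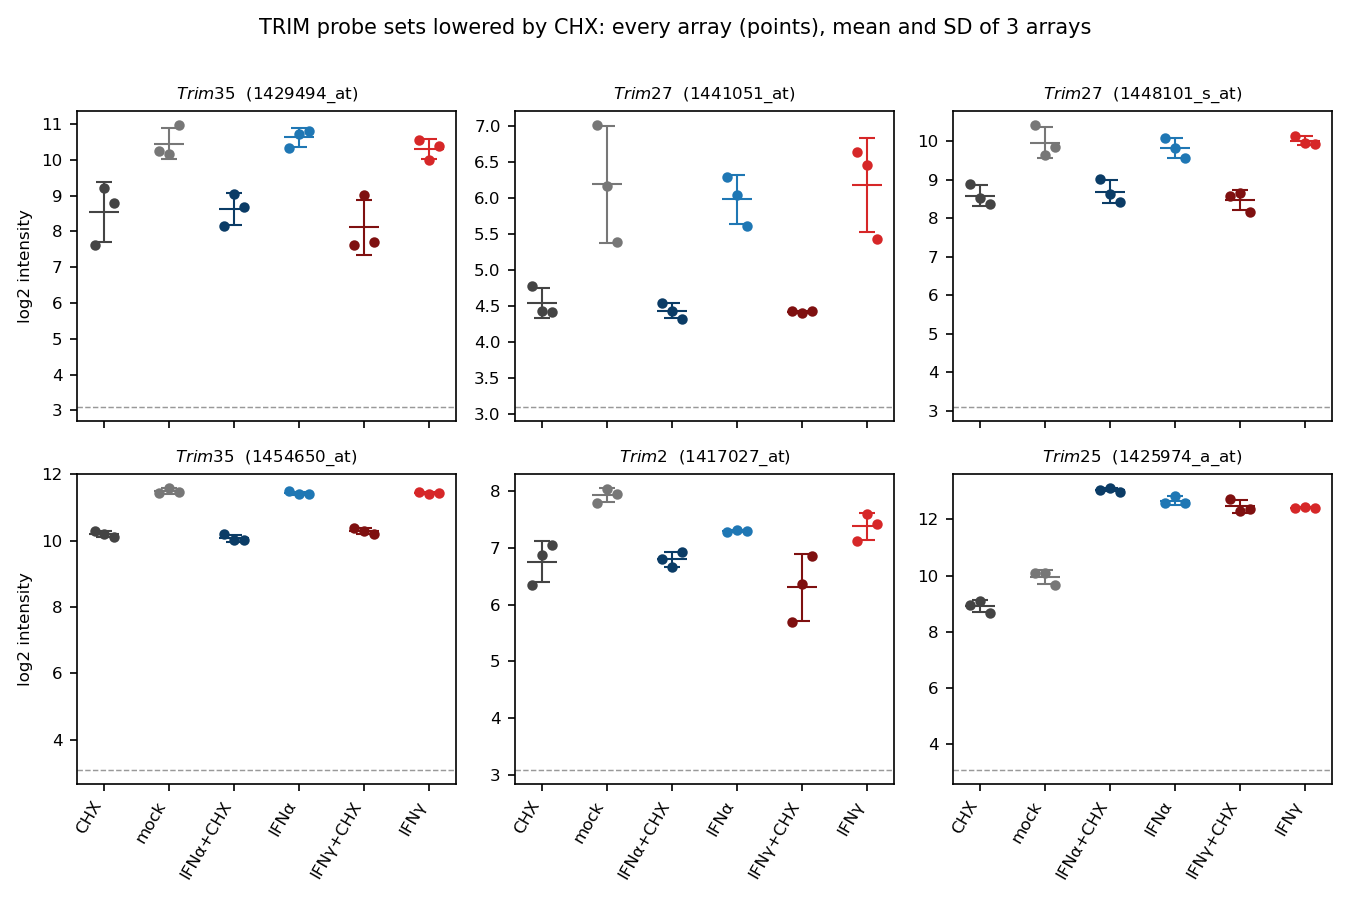
Log2 intensity (y axis) of the 6 TRIM probe sets lowered by CHX on every array (points), with mean and SD of 3 arrays, each CHX group to the left of its group without CHX, and with the filter level as a dashed line. For *Trim35* and *Trim27* the CHX groups lie below the groups without CHX with and without IFN, while *Trim25* is high wherever an IFN was given.

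Without the 2-fold limit, 3 more TRIM probe sets fell with CHX and 1 rose, where 7.02% of all probe sets fell and 3.92% rose. The falls were those of *Trim25*, of *Trim28*, the corepressor of KRAB zinc finger proteins (-0.82, SE 0.18, adjusted p = 5.51e-03), and of *Trim33*, a regulator of SMAD signalling, on probe set 1455189_at (-0.69, SE 0.16, adjusted p = 7.99e-03). The most intense *Trim33* probe set, 1426954_at, was not among them. It read 939.7, 706.8 and 665.8 in CHX arrays, against 995.7, 992.4 and 772.6 in mock arrays, which overlapped. *Trim28* read 2740.9, 2639.5 and 2014.8 in CHX arrays, against 4706.1, 3959.1 and 4327.2 in mock arrays, and did not overlap. *Trim39*, a ligase of the major histocompatibility complex region, was the 1 that rose, with 593.4, 638.9 and 675.4 in CHX arrays, against 435.6, 399.6 and 473 in mock arrays (0.55, SE 0.11, adjusted p = 3.69e-03).

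Of the TIF1 and chromatin group, *Trim24*, *Trim28*, *Trim33* and *Trim66* had log2 changes between -0.36 and 0.38 in the 4 IFN comparisons on their most intense probe sets, and none passed the test. In the NHL group, *Trim32*, *Trim3*, *Trim2* and *Trim71* ranged from -1.01 to 0.27 in these comparisons on theirs. *Trim3* read 86.1, 96 and 68.9 in IFNγ+CHX arrays, against 144.6, 157.3 and 134.3 in CHX arrays, and these did not overlap (-0.81, SE 0.21, adjusted p = 0.0307), but the change was not called. The cytoskeletal members that passed the filter, *Trim9*, *Trim36*, *Trim46* and *Trim67*, stayed between 5.2 and 17.1 units on all arrays on their representative probe sets, and *Trim42*, *Trim54*, *Trim63* and *Trim72*, of which *Trim54*, *Trim63* and *Trim72* are muscle genes, did not pass it.

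Among further members measured, *Trim59*, which encodes a TRIM protein with a membrane anchor, read 5830.2, 5184.5 and 4303.4 in CHX arrays, against 4014, 3387.7 and 2187.7 in mock arrays, all CHX arrays being above all mock arrays (0.71, SE 0.21, adjusted p = 0.0296, not called). *Trim44* lay between 660.7 and 942.8 on all 18 arrays on probe set 1421870_at and was not called in any comparison. *Trim10*, *Trim15*, *Trim29*, *Trim43a*, *Trim60*, *Trim69*, *Trim75* and *Trim80* did not pass the filter. At the edge of the filter, *Trim9* had highest values of 9.6 and 9 on the last 2 probe sets kept, and *Trim60* and *Trim69* had 8.4 on the first 2 left out.

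TRIM genes under other names were read from a separate list. *Pml*, the TRIM gene of nuclear bodies, averaged 411 in IFNα+CHX arrays and 185 in IFNγ+CHX arrays, against 67.8 in CHX arrays, and was called in both (2.61 and 1.37, SE 0.27, adjusted p = 2.10e-05 and 4.11e-03). Without CHX it averaged 214 in IFNα arrays and 144 in IFNγ arrays, against 85.9 in mock arrays, and neither was called (adjusted p = 0.0293 and 0.229). *Mid1*, a microtubule-bound TRIM protein gene, was not called, and *Mid2* and *Mefv* did not pass the filter.

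Partners and substrates of TRIM ligases were followed in a list of 24 genes, of which 22 had a probe set annotated with that symbol alone. None was found for *Isg15* and *Traf3*, which were not followed. With IFNα 4 of them rose, with IFNγ 2, with IFNα+CHX 5, with IFNγ+CHX 2 and with CHX 1, and none fell. Over all probe sets 0.461%, 1.42%, 0.889%, 2.57% and 2.51% rose in these comparisons. Of the partners raised by IFNα, *Ifih1* averaged 6.13 in mock and 6.53 in CHX arrays, and *Irf7* averaged 5.77 and 6. These means lie under the filter level of 8.5, and both genes passed the filter only through arrays with IFNα. The counts therefore describe the list and support nothing beyond, and no size of the rise of these genes can be read. The gene of RIG-I (*Ddx58*), the sensor served by TRIM25, averaged 517 in IFNα arrays and 45.4 in IFNγ arrays, against 22.1 in mock arrays (4.54 and 1.04, SE 0.17). *Ifih1*, the gene of the related sensor MDA5, averaged 57.5 in IFNα arrays, against 6.13 in mock arrays, and was not called with IFNγ (0.04, SE 0.18, adjusted p = 1). *Sting1*, of the DNA sensing pathway, averaged 850 in IFNγ arrays and 93.8 in IFNα arrays, against 63.4 in mock arrays (3.75 and 0.58, SE 0.51). It was called with IFNγ and with IFNγ+CHX (4.78, SE 0.51), and was not called with IFNα or IFNα+CHX. *Irf7* and *Zc3hav1* were the other partners raised by IFNα, *Cgas* joined them with IFNα+CHX (1.17, SE 0.13), and *Irf3* rose with CHX (1.32, SE 0.23, adjusted p = 1.03e-03). The ubiquitin-conjugating enzyme genes *Ube2n*, *Ube2v1*, *Ube2v2*, *Ube2w* and *Ube2d3* of the list were not called in any comparison.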

How the data were processed

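Newly transcribed RNA was hybridised to Affymetrix MG 430 2.0 arrays. The deposited table holds 1 linear intensity per probe set and array, which the authors computed with gc-RMA in R and Bioconductor per the methods. The submitters' processing notes name Affymetrix Expression Console without a version. Here 64 control probe sets were left out and log2 of the intensity was taken with no added constant. The 27759 probe sets with the highest maximum were kept (27773 with ties, level 8.5), since present calls were not used here. All 18 arrays entered 1 limma 3.58.1 model (R 4.3.3) of the 6 treatments, with 12 residual and 2.05 prior degrees of freedom and 9 comparisons, each adjusted by Benjamini-Hochberg over all probe sets kept. Calls needed an adjusted p under 0.01 and 2-fold. The model was tested on simulated data. The members, role groups and lists were chosen with earlier results of these data known. Named were members called in any comparison, their further probe sets, up to 4 members of a role group with the highest mean level, and those at the filter edge. Gene-level statements use the kept probe set with the highest mean, without the _x suffix. Probe sets with several symbols were not used, which left out 5 that include a TRIM gene. Sequences came from RefSeq (GRCm38.p6), matched by gene ID and searched with pandas under Python. Alternatives were other constants, scalings, filters, thresholds and arrays, and a replicate block. No 2 arrays held identical values.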

Additional observations from a re-analysis of the deposited data

Results flagged for a closer look

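The response to IFNα differed between cells with and without CHX in 5 TRIM probe sets by the test of the difference itself. The log2 difference (response with CHX minus response without it) was 2.04 for *Trim30d* (1435665_at), 1.95 for *Trim21* (1448940_at) and 1.73, 1.43 and 1.25 for the *Trim25* probe sets 1426415_a_at, 1425974_a_at and 1419879_s_at. For IFNγ it was 1.78 for *Trim21* (1448940_at). The 4 differences of *Trim30d* and *Trim25* rest on arrays above the filter level and were positive. The *Trim25* probe sets had negative log2 changes with CHX alone (-1.04 on 1425974_a_at), and these falls enter their differences. The calls of *Trim30d* and of *Trim25* on 1425974_a_at were each lost in 11 of 27 alternatives. The arrays of *Trim21* without IFN lay below that level, so its fitted differences give no size, and its second probe set gave 0.77 for IFNα and 0.84 for IFNγ (adjusted p = 1 and 0.702, limma).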

How the results depend on the processing

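Of 63 calls of single TRIM probe sets, 0 turned direction under any alternative, but 23 were lost in a fit of only the arrays compared. Among the lost calls were *Trim12c* with IFNα and with IFNγ, and *Trim30a* on 1451860_a_at with IFNα and with IFNγ+CHX. *Trim30d* with IFNα and *Trim11* with IFNγ+CHX were lost there too. With CHX alone (6 probe sets called), 1 was called in a fit of only the arrays compared and 10 with no fold limit. IFNγ against IFNα gave 2 (5 on all arrays) and IFNγ+CHX against IFNα+CHX gave 4 (7 on all arrays) in a fit of only the arrays compared, which has fewer residual degrees of freedom. The IFNα difference with and without CHX (5) gave 1 after median centring and 1 with only the arrays compared. The IFNγ difference (1) gave 0 with log2(value + 16), 0 with median centring, 0 with no filter and 3 at an adjusted p under 0.05. The other counts under these scalings, filters and thresholds stayed within 1.5 times on all arrays, and the causes were not tested. Among single calls, *Trim6* with IFNα+CHX was lost most often, in 15 of 26 alternatives.

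Leaving out 1 array at a time gave 10 probe sets with IFNα, 7 with IFNγ, 2 to 7 with CHX (2 without mock replicate 2), 11 to 12 with IFNα+CHX, 10 to 11 with IFNγ+CHX, 3 to 5 for IFNγ against IFNα, 7 to 8 for the same with CHX, 2 to 6 for the IFNα difference and 0 to 2 for the IFNγ difference (2 without IFNγ+CHX replicate 3).

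With the replicate number as a block the IFNγ difference gave 3 probe sets, the CHX count was 9 and 0 of the 63 calls were lost. The labels do not say what a number shares. Same-numbered arrays of different groups correlated in their deviations at -0.40 to 0.78 (median 0.47, 45 pairs), with 38 over 0.1, and 14 of 18 arrays correlated best with their own number. Arrays of different groups with different numbers gave -0.74 to 0.53 (median -0.31, 90 pairs), with 25 over 0.1. The main model took no account of the number. Probe sets near the filter level limit what a fold can show.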
